A study of Mus musculus with 4 samples.

Results

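The interleukin 1 (IL-1) family and inflammasome genes are followed here as 10 genes of 19505 measured: Il1a, Il1b, Il18, Il1rn, Il1r1, Nlrp3, Pycard, Casp1, Casp4 and Gsdmd. They were chosen by name, with earlier results of these data known, and each gene has 1 probe set that names it alone. The cells are macrophages grown from the marrow of wild-type (WT) animals or of animals without Hem1 (Hem1 KO). Hem1, encoded by Nckap1l, is the blood-cell subunit of the WAVE complex, which switches on actin branching by Arp2/3. Both groups were cultured alike, for 8 days with 20% L929-conditioned medium and 10% fetal calf serum, and received no treatment according to the labels, so the inflammasome was not deliberately triggered. Each genotype has 2 arrays from different mice. The sources used here do not give strain, age, sex or the deleted part of Nckap1l. Pairs of values below have replicate 1 first.

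IL-1α and IL-1β are inflammatory cytokines that signal through the receptor encoded by Il1r1, and the product of Il1rn occupies that receptor without signalling. IL-1β and IL-18 are made as inactive precursors. In macrophages, sensors such as NLRP3 gather the adaptor ASC, encoded by Pycard, and caspase-1, which cuts both precursors and also gasdermin D, whose freed part forms pores in the cell membrane. Mouse caspase-11, encoded by Casp4, recognises intracellular bacterial lipopolysaccharide and cuts gasdermin D as well. A stimulus through Toll-like receptors and NF-kB raises Il1b and Nlrp3 transcripts beforehand, a step called priming.

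Levels are the deposited RMA values on a log2 scale, on which a step of 1 is a doubling of signal. Background was set on each array at the 95th percentile of 1450 chemosensory (smell, pheromone and taste) receptor genes, and it ran from 5.38 to 6.04. Between 12588 and 13074 genes lay above it on an array. The median level over genes was 6.82 and 6.42 on WT replicates 1 and 2, and 6.95 and 6.49 on Hem1 KO replicates 1 and 2. Nckap1l was lower in the Hem1 KO arrays (log2 difference -1.41, standard error (SE) 0.32, adjusted p = 0.0467 by limma). Both Hem1 KO arrays lay below both WT arrays. The call was lost in 5 of 11 alternatives, where the adjusted p by limma was 0.381 without WT replicate 1, 0.128 without WT replicate 2, 0.0874 without Hem1 KO replicate 2, 0.0798 among genes above background and 0.121 over all probe sets. All 14 measured macrophage identity markers were above background on every array.

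Promoter sequence from RefSeq was in hand for 9 of the 10 genes, all but Gsdmd. The windows shown are the 250 bases before the most upstream listed start, given 5′ to 3′ on the gene's own strand in GRCm38.p6. They are shown for the neighbours Il1a and Il1b on chromosome 2, of which Il1a stayed at background while Il1b was bright. Nlrp3 is shown because its arrays lay apart as those of Il1b did. Also shown are the neighbours Casp1 and Casp4 on chromosome 9. On the deposited values Casp1 separated the genotypes and Casp4 did not, while both did after each array was centred on its median. Neither passed the threshold. Capitals mark every match to 6 motifs searched on both strands. The motifs were the TATA box (TATAAA), AP-1 (TGANTCA), the core of PU.1 sites (GAGGAA), the interferon gamma-activated site (TTCNNNGAA), the interferon-stimulated response element (ISRE) and NF-kB. The Il1a window is chr2:129309973-129310222 (minus strand), Il1b chr2:129371140-129371389 (minus), Nlrp3 chr11:59541319-59541568 (plus), Casp1 chr9:5298267-5298516 (plus) and Casp4 chr9:5308599-5308848 (plus).
Il1a: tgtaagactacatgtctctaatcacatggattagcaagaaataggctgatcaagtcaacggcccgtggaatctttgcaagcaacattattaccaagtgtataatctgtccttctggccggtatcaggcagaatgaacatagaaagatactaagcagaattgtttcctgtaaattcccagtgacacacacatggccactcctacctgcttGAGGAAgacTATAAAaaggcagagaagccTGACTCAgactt
Il1b: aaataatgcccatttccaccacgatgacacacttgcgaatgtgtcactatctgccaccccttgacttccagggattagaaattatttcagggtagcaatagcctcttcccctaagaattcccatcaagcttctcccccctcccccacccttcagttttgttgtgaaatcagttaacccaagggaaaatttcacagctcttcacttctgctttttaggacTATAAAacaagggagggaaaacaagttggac
Nlrp3: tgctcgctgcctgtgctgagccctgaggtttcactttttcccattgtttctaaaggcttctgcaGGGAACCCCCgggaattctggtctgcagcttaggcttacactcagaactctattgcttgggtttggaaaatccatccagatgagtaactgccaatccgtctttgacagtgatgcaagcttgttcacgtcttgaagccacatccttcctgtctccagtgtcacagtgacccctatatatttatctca
Casp1: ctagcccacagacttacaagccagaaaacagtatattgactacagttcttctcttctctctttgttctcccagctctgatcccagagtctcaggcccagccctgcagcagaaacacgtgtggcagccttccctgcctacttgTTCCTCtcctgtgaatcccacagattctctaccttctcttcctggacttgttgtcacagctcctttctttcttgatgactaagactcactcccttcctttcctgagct
Casp4: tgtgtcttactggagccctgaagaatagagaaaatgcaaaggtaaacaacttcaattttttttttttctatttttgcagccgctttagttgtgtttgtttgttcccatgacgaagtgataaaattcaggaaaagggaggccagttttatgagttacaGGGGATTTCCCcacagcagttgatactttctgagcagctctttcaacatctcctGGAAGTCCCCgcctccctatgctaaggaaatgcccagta

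In Il1b the only capitals are a TATA box that begins 31 bases before the start. Il1a has a TATA box at 32 bases, a PU.1 core at 41 bases and an AP-1 match at 12 bases, the last read on both strands. In Nlrp3 the capitals are an NF-kB match that begins 186 bases before the start and reads on both strands. Casp4 has NF-kB matches in 2 places, the first of them made of overlapping matches, and Casp1 has a PU.1 core on the opposite strand. Among the windows not printed, Il18 held TATAAA on the opposite strand, Il1rn an AP-1 match, Pycard a PU.1 core and Il1r1 none of the 6. No window of the 9 held either interferon motif. Over 32851 promoter windows of the same length, TATAAA was present in 12.4%, TGANTCA in 6.75%, GAGGAA in 23.3%, TTCNNNGAA in 7.02%, the ISRE in 2.98% and the NF-kB motif in 7.25%. A match describes the letters only.

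The series asks how gene expression differs without Hem1. None of the 10 genes passed the threshold of adjusted p under 0.05 over all genes (limma, 2 arrays per genotype), where 1.61% of all genes did. At an unadjusted p under 0.05, Casp1 alone was lower, against 1.57% of all genes lower at that level, and 0 were higher, against 3.63%. Of the 10, 8 read below 0 (Hem1 KO minus WT), against 48.2% of all genes, and their median was -0.44 beside 0.01 over all genes. Leaving out WT replicate 1 turned that median to 0.07, and leaving out Hem1 KO replicate 2 brought it to 0.00. The macrophage identity markers read lower beside them, 14 of 14 below 0 with a median of -0.36, and what part this has in the members' values was not tested. In bulk RNA, fewer cells of a type and less transcript per cell cannot be told apart.

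**Figure D1:**
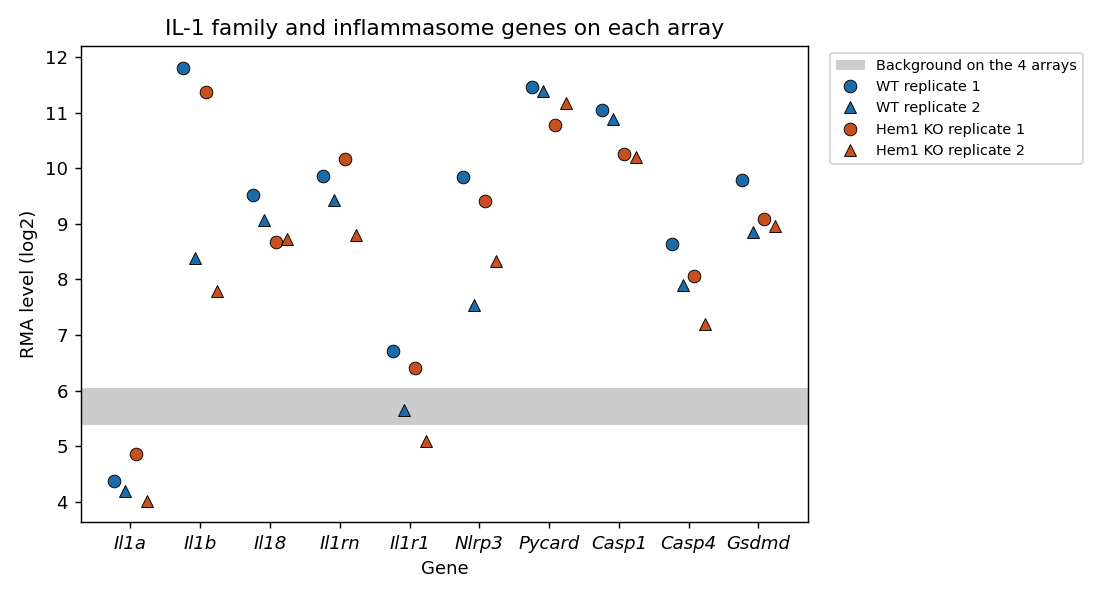
RMA level (log2) of each gene on each of the 4 arrays, WT in blue and Hem1 KO in orange, circles for replicate 1 and triangles for replicate 2; the grey band spans the background of the 4 arrays (5.38 to 6.04). Il1b splits by circle and triangle rather than by colour, while the orange points of Casp1, Pycard and Il18 lie below the blue ones.

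Among the cytokines, Il1b had the widest spread between arrays. It read 11.81 and 8.38 on WT replicates 1 and 2 and 11.36 and 7.80 on Hem1 KO replicates 1 and 2. Both arrays labelled replicate 1 were high, both labelled replicate 2 were low, and the genotypes overlapped. The gap between arrays of the same genotype was 3.43 in WT, a 10.7-fold range, and 3.57 in Hem1 KO, an 11.9-fold range. The difference between genotypes was -0.52 (SE 1.01, 95% interval -2.70 to 1.67, adjusted p = 1.0 by limma). This interval leaves a change of more than 2-fold in either direction possible. With an arm of 1 array the sign followed the array left out: leaving out WT replicate 1 gave a difference of 1.19 and leaving out Hem1 KO replicate 2 gave 1.27. It was -2.23 without WT replicate 2 (limma adjusted p = 0.00176), and leaving out Hem1 KO replicate 1 gave -2.30 (limma adjusted p = 3.85e-06). Those fits gave every gene the same spread, so the p-values of the last 2 do not carry the Il1b gap.

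Il1a read 4.36 and 4.19 in WT cultures, against 4.86 and 4.02 in Hem1 KO cultures, below background on all 4 arrays. No level above background was therefore measured for this second IL-1 cytokine, although its neighbour Il1b was at least 2.41 above background on every array. Il18 is a precursor that resting macrophages already carry. It read 9.52 and 9.06 in WT cultures, against 8.67 and 8.73 in Hem1 KO cultures. Both Hem1 KO arrays lay below both WT arrays, as did 13.3% of all genes, while 0 of the 10 genes had both Hem1 KO arrays above both WT arrays, against 12.5%. The difference was -0.59 (SE 0.32, 95% interval -1.28 to 0.10, adjusted p = 1.0 by limma), 1.29 times the larger gap between arrays of a genotype. Leaving out 1 array gave -0.82 to -0.36.

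The receptor antagonist and the receptor did not separate the genotypes. Il1rn read 9.86 and 9.43 in WT cultures, against 10.16 and 8.80 in Hem1 KO cultures. The Hem1 KO arrays lay on either side of the WT arrays. The difference was -0.17 (SE 0.42, 95% interval -1.07 to 0.73). Il1r1 is common on fibroblasts and other stromal cells and low on macrophages. It read 6.71 and 5.64 in WT cultures, against 6.40 and 5.09 in Hem1 KO cultures, and was above background on 3 of 4 arrays. Its difference was -0.43 (SE 0.45, 95% interval -1.41 to 0.54), so Il1r1 did not separate the genotypes while the stromal cell markers were higher, with a median of 1.75. Of 13 measured stromal markers 13 lay above 0 and 7 were called higher, among them Col5a1 (2.71) and Pdgfrb (2.36), and their mean level was 6.82 to 7.18 in WT and 8.15 to 8.70 in Hem1 KO cultures. Called as well were Cxcl12 (2.06), Col1a1 (1.97), Acta2 (1.75) and Col1a2 (1.94).

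The sensor Nlrp3 read 9.83 and 7.55 in WT cultures, against 9.40 and 8.33 in Hem1 KO cultures. As for Il1b, the arrays labelled replicate 1 were the high ones in both genotypes and the genotypes overlapped. The gap was 2.29 in WT and 1.07 in Hem1 KO, against a difference between genotypes of 0.18 (SE 0.58, 95% interval -1.07 to 1.43). Pycard, whose product ASC links sensors to caspase-1, behaved differently. It read 11.47 and 11.40 in WT cultures, against 10.78 and 11.18 in Hem1 KO cultures. The Hem1 KO arrays lay below the WT arrays, with a difference of -0.45 (SE 0.32, 95% interval -1.14 to 0.23) against gaps of 0.07 in WT and 0.39 in Hem1 KO. Leaving out 1 array gave -0.65 to -0.26. After centring each array on its median, Pycard read 4.65 and 4.98 in WT cultures, against 3.83 and 4.69 in Hem1 KO cultures. The genotypes then overlapped. The centred difference of -0.55 was smaller in size than the centred Hem1 KO gap of -0.86 (replicate 1 minus replicate 2).

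Of the 10 genes, Casp1 had the smallest p, and on the deposited values its largest gap between arrays of a genotype was also the smallest. It read 11.04 and 10.88 in WT cultures, against 10.25 and 10.21 in Hem1 KO cultures. Both Hem1 KO arrays were lower, and the arrays of each genotype lay close together. The difference was -0.73 (1.66-fold, SE 0.31, 95% interval -1.40 to -0.06), 4.64 times the larger of the gaps, 0.16 in WT and 0.04 in Hem1 KO. It did not pass over all genes (unadjusted p = 0.0348, adjusted p = 0.777 by limma). After centring each array on its median, the difference was -0.83. The gaps (replicate 1 minus replicate 2) were then -0.24 in WT and -0.42 in Hem1 KO. Both Hem1 KO arrays stayed below both WT arrays, but Il1a and Casp4 then had a smaller largest gap than Casp1. With 2 arrays a side, the smallest p of a two-sided exact permutation test is 0.333, which Casp1, Pycard and Il18 all gave. When the prior spread was allowed to follow intensity, Casp1 passed (adjusted p = 0.0108 by limma, with 1.05% of all genes called lower). That fit gave genes of a level one shared spread, so its p-value does not carry the gaps of Casp1 itself. Over all its alternatives the adjusted p by limma ran from 0.0108 to 1.0, while the difference stayed between -0.83 and -0.60.

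Casp4, the neighbour of Casp1, read 8.64 and 7.91 in WT cultures, against 8.06 and 7.20 in Hem1 KO cultures. The genotypes overlapped, since the higher Hem1 KO array lay above the lower WT array. The difference was -0.65 (SE 0.38, 95% interval -1.47 to 0.17), less than the gap of 0.74 in WT and of 0.86 in Hem1 KO. Leaving out 1 array moved it from -1.08 to -0.22. After centring each array on its median, Casp4 read 1.82 and 1.49 in WT cultures, against 1.11 and 0.71 in Hem1 KO cultures. Both Hem1 KO arrays then lay below both WT arrays. The centred difference of -0.75 was larger in size than the centred gaps of 0.33 in WT and 0.39 in Hem1 KO. Gsdmd, the pore-forming substrate, read 9.79 and 8.85 in WT cultures, against 9.08 and 8.96 in Hem1 KO cultures. WT replicate 1 stood above the other arrays, which lay together. The difference was -0.30 (SE 0.36, 95% interval -1.07 to 0.48), and without WT replicate 1 it was 0.17.

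**Figure D2:**
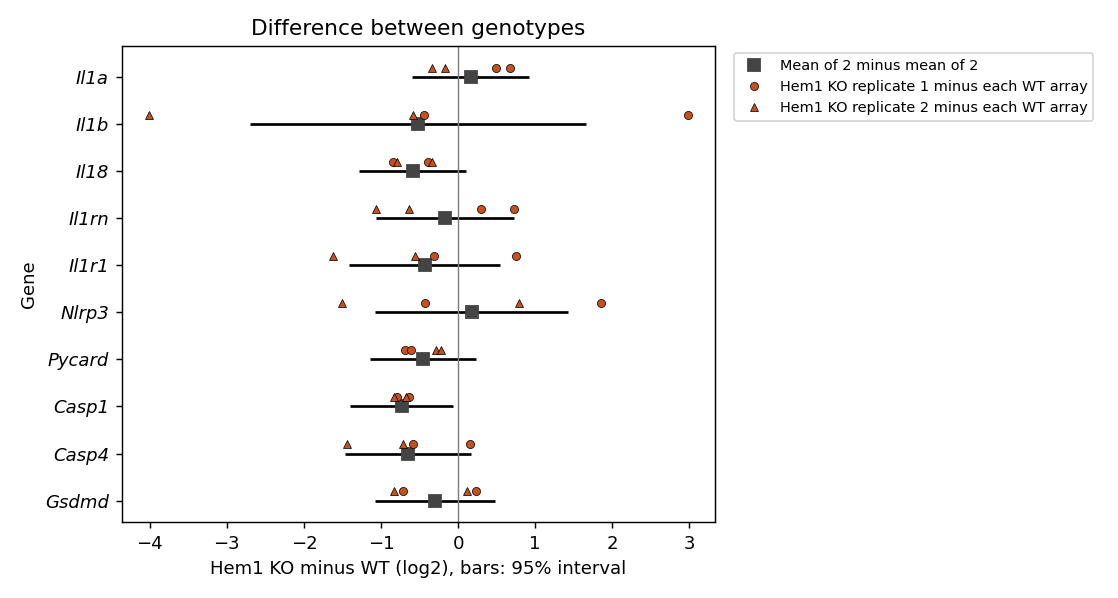
Log2 difference, Hem1 KO minus WT, for each gene: the square is the mean of 2 arrays minus the mean of 2, the bar its 95% interval from limma, and the small points are each Hem1 KO array minus each WT array. The 4 points of Casp1 lie together below 0, those of Il1b spread from -4.02 to 2.98, and the bar of every gene but Casp1 crosses 0.

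On the deposited values, the separation of arrays within a genotype was therefore larger than the genotype difference for 7 of the 10 genes. These were all but Il18, Pycard and Casp1. After centring, Pycard joined those genes and Casp4 left them. Of all genes tested, 0.892% had replicate 1 above replicate 2 by more than 1 in both genotypes, and 0.00513% had it below by as much, a threshold chosen after the values were seen. Il1b, Nlrp3 and Il1r1 were 3 such genes among the 10. Ranked by the smaller of the gaps in WT and Hem1 KO, Il1b stood at position 2 of 19505, Nlrp3 at 142 and Il1r1 at 144. The gap medians over all genes were 0.28 in WT and 0.38 in Hem1 KO, and centring each array on its median left Il1b with gaps of 3.02 and 3.10. Centring left Nlrp3 with 1.88 in WT and 0.60 in Hem1 KO, and Il1r1 with 0.67 and 0.85. Neither Nlrp3 nor Il1r1 then exceeded 1 in both genotypes.

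The 10 highest genes in that order, named after their values were seen, included Ptgs2, Cxcl2 and Osm besides Il1b. Whether the cultures were primed was not tested. Positions 3, 4 and 5, next after Il1b, held the class II presentation gene H2-Eb1, Adgre4 and Pxdc1. Their values are given under the other observations, with those of Gpr35, H2-Ab1 and Hp. Cxcl2 stood at position 6 and Osm at 9. Ptgs2, the inducible cyclooxygenase, stood at position 1 with 9.66 and 6.08 in WT cultures, against 9.78 and 6.17 in Hem1 KO cultures. The neutrophil-attracting chemokine gene Cxcl2 read 9.95 and 6.75 in WT cultures, against 9.15 and 6.77 in Hem1 KO cultures. The cytokine gene Osm read 9.18 and 7.14 in WT cultures, against 9.23 and 7.27 in Hem1 KO cultures. Each was high on the arrays labelled replicate 1 and low on the others, in both genotypes. The labels do not say whether same-numbered arrays shared a culture day or a litter, and a cause was not tested.

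**Figure D3:**
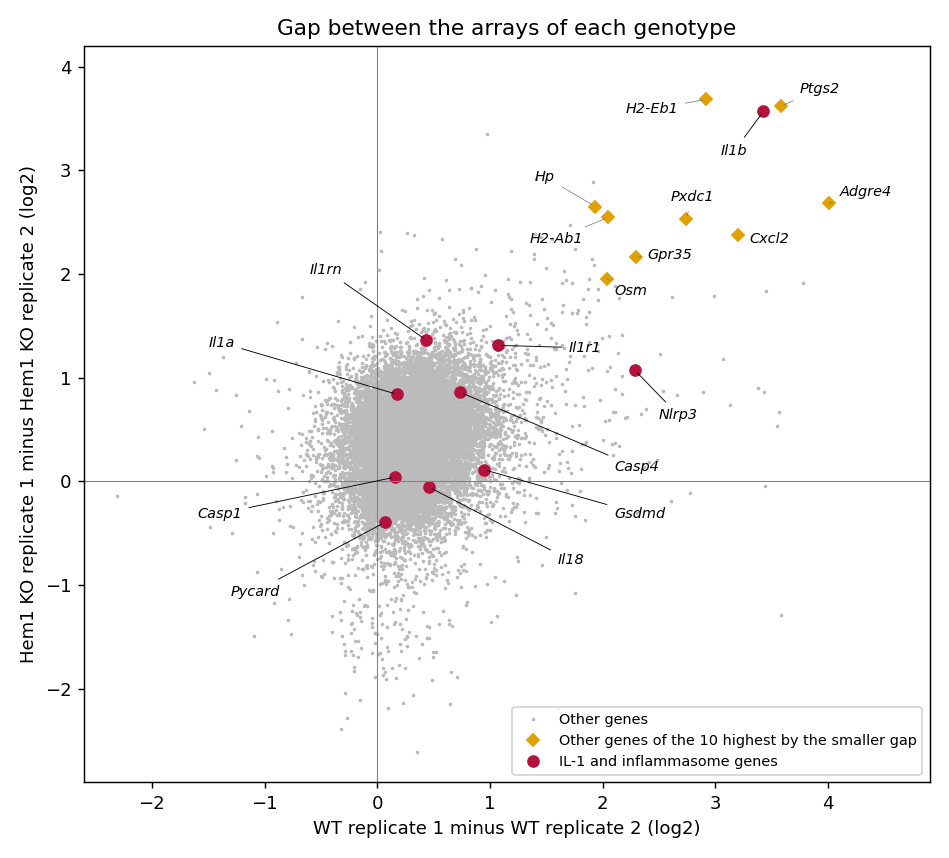
Gap between the arrays of a genotype (replicate 1 minus replicate 2, log2), WT on the horizontal and Hem1 KO on the vertical axis, for 19505 genes; the IL-1 and inflammasome genes are red and the other genes among the 10 highest by the smaller gap are yellow. Il1b lies beside Ptgs2 in the upper right corner, Nlrp3 and Il1r1 are above 1 on both axes, and Casp1 and Pycard lie near 0.

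The genes of NF-kB and priming were read next, from a list of 20 measured. By limma 0 passed, none at an unadjusted p under 0.05 either, and the median difference was -0.16. Ly96, the lipopolysaccharide-binding partner of TLR4, read -0.63 and the adaptor Ticam1 -0.49. Within the genotypes the list split in the direction of Il1b but less widely, with a median gap, without centring, of 0.83 in WT and 0.80 in Hem1 KO. Over all genes the medians were 0.28 and 0.38. The gap exceeded 1 in both genotypes for 7 of the 20, against 0.892% of all genes. They were the NF-kB subunit Rel, the inhibitors and regulators Nfkbie, Nfkbiz, Bcl3 and Tnfaip3, the receptor gene Tlr2 and the transcription factor Irf1. Nfkbiz, for example, read 10.20 and 8.41 in WT cultures, against 10.07 and 8.41 in Hem1 KO cultures. Neutrophils are another source of IL-1β. Their markers had median gaps of 0.72 and 0.81, with a mean level of 5.15 to 5.74 in WT and 5.04 to 5.79 in Hem1 KO arrays. Of 11 neutrophil markers 2 were above background on all arrays and 5 on at least 1. S100a8 was above it on none, while S100a9 was above it on both arrays labelled replicate 1 only, with 6.08 and 5.20 in WT cultures, against 6.11 and 4.80 in Hem1 KO cultures. The 6 monocyte markers had median gaps of 1.06 and 1.01. The part of these cells in the Il1b values was not tested.

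Other receptors and ligands of the family gave 0 calls by limma. Of 6 other IL-1 family ligands 0 reached an unadjusted p under 0.05 (median 0.19), and those with the smallest p, Il1f5 and Il1f8 of the IL-36 branch, lay below background on all arrays with differences of 0.27 and 0.22. Of 9 other receptors and binding proteins 1 was higher at an unadjusted p under 0.05 (median -0.03), against 3.63% of all genes. This was Il1rl2, the IL-36 receptor (0.82), below background on all arrays. Il18rap, a chain of the IL-18 receptor, read -0.42. The decoy receptor Il1r2 and the IL-18 inhibitor Il18bp, named after their values were seen, shared the split within genotypes: Il18bp read 8.88 and 7.29 in WT cultures, against 8.20 and 7.18 in Hem1 KO cultures. Among 14 IL-1 receptor signalling genes 0 passed by limma and 0 had an unadjusted p under 0.05 (median -0.13), and the adaptor Myd88 read -0.50 and the ubiquitin ligase Peli1 -0.39.

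Of 17 other sensors 0 passed by limma, 2 were lower before adjustment (p under 0.05, median -0.17), against 1.57% of all genes, and 6 had both Hem1 KO arrays below both WT arrays, against 13.3% of all genes. So did 9 of the 14 macrophage identity markers, and what part that has here was not tested. The interferon-inducible DNA sensor family member Ifi204 read -0.93 (SE 0.36, adjusted p = 0.599) and Naip6, of the family that pairs with NLRC4, -0.91 (SE 0.36, adjusted p = 0.640). Of 21 genes of NLRP3 activation and restraint 0 passed by limma, 2 were lower before adjustment (median -0.29), and 10 had no overlap in that direction, beside the same shares of all genes and the same marker count. Kcnk6, a potassium channel whose outward current favours NLRP3 assembly, read 9.73 and 9.63 in WT cultures, against 8.63 and 8.95 in Hem1 KO cultures (-0.89, SE 0.32, adjusted p = 0.449). Ptpn22, a phosphatase, read -0.87. Of 21 other caspases, gasdermins and cell death genes 0 passed by limma and 1 was higher before adjustment (median -0.15), against 3.63% of all genes. Casp12, the next gene after Casp4, read 0.82 and was above background on 1 of 4 arrays, while the necroptosis kinase Ripk3 read 0.75.

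Interferons raise Casp1, Casp4 and several sensors in macrophages, and their response genes are set beside the members here. On the 28 type I interferon response genes the arrays split in another way than on Il1b: the mean level was 8.92 on WT replicate 1, 7.41 on WT replicate 2, 7.51 on Hem1 KO replicate 1 and 7.47 on Hem1 KO replicate 2. WT replicate 1 alone was high. By limma 0 of the 28 passed and 5 were lower before adjustment (p under 0.05, median -0.59), against 1.57% of all genes. For 9 of the 28 both Hem1 KO arrays lay below both WT arrays, against 13.3% of all genes and 9 of the 14 macrophage identity markers. Of the 5, Cmpk2 (-1.63) and Oasl2 (-1.03) had the smallest p. The other 3 were Irf7 (-1.67), Rtp4 (-1.13) and Oas3 (-1.04), named after their values were seen. Of 12 GBP and IRG GTPases, which take part in exposing bacterial ligands to caspase-11 and AIM2, 0 passed by limma. Before adjustment 2 were lower (median -0.39), Gbp9 (-1.17) and Igtp (-0.86), against 1.57% of all genes. The median gap of the 12 was 1.31 in WT and 0.23 in Hem1 KO. The part of either list in the values of Casp1, Casp4 and Gsdmd was not tested.

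Among the macrophage identity markers 0 of 14 passed by limma and 1 was lower before adjustment (p under 0.05), against 1.57% of all genes. Fcgr1 read -0.74 and Ctss -0.55. Their mean level was 11.36 to 11.67 in WT and 11.12 to 11.20 in Hem1 KO arrays. Of the remaining marker lists, the monocyte markers held 2 called higher, Plac8 (2.45) and Vcan (2.02), the basophil and mast cell markers 1, Mcpt8 (4.24), and the endothelial markers 1 lower, Vwf (-1.52). WT replicate 2 was below background for Plac8 and Mcpt8, and Hem1 KO replicate 1 for Vwf. The endothelial markers also held 1 called higher, Cdh5, which was below background on both WT arrays. It was at least 1.86-fold higher in Hem1 KO cultures, taking the background of the WT arrays as its level there (adjusted p = 0.00622 by limma). By limma 0 passed of the 11 neutrophil, 8 dendritic, 10 lymphocyte and 7 erythroid and megakaryocyte markers, and 0 had an unadjusted p under 0.05. Among the neutrophil markers the smallest p were those of Camp, below background on both WT arrays, and S100a8, below background on all arrays. Camp read 5.71 and 5.26 in WT cultures, against 6.48 and 5.57 in Hem1 KO cultures, so the genotypes overlapped (95% interval -0.25 to 1.33). In the other lists the smallest p were those of Itgax (-0.93) and Siglech, below background on all arrays, Cd79b (-0.61) and Cd79a (-0.36), and Epor (-0.22) and Itga2b (0.20).

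**Figure D4:**
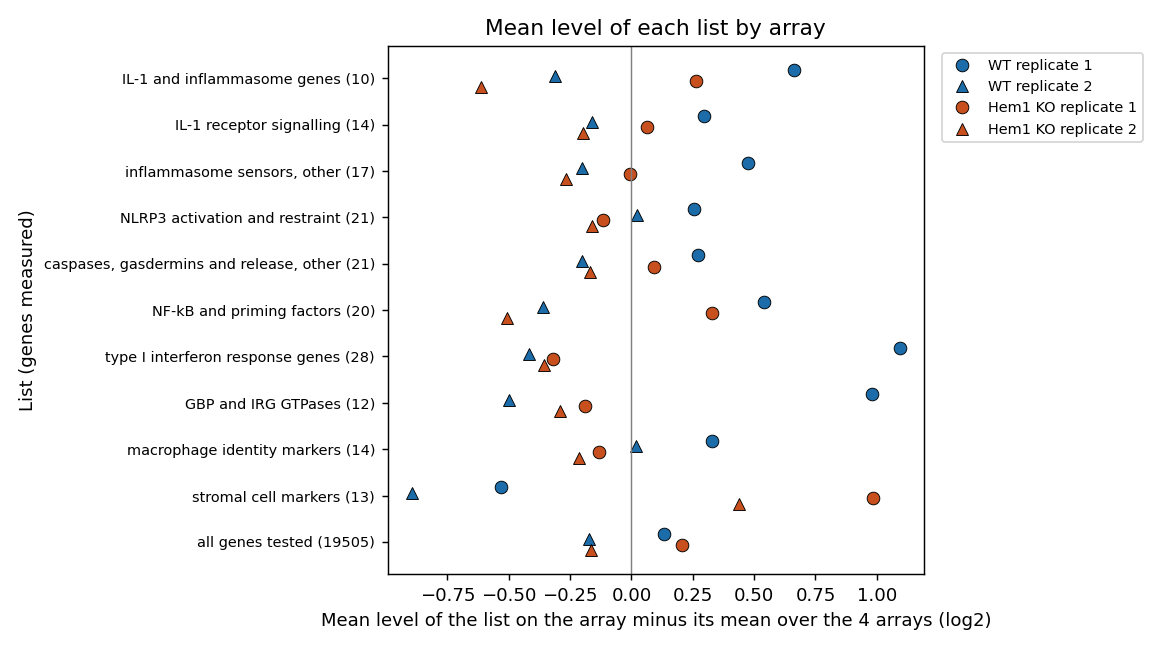
Mean level of each gene list on each array minus the list's mean over the 4 arrays (log2), WT in blue and Hem1 KO in orange, circles for replicate 1 and triangles for replicate 2, with the number of genes measured. The NF-kB and priming list has both circles to the right, the interferon and GBP lists have WT replicate 1 alone to the right, and the stromal markers have both Hem1 KO arrays to the right.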

How the data were processed

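RNA of the macrophage cultures was hybridised on 1 array each, 2 of WT and 2 of Hem1 KO mice, grouped by the genotype in the labels. The deposited table holds log2 values for 29129 rows. The authors used RMA, per the submitters' processing notes, without a version or settings. Of the rows, 19572 name 1 gene in the platform annotation. The probe set with the highest mean over the 4 arrays was kept per gene, which left 19505 genes. The fit per gene used limma 3.58.1 under R 4.3.3 (lmFit, eBayes, two-sided, 11.2 prior degrees of freedom), with genotype as the only term and Benjamini-Hochberg adjustment over all genes. Intervals are 95% and unadjusted, and the number of arrays limits the precision. The fit was tested on simulated data. The 10 genes and the lists were chosen with earlier results of these data known. Named from each list were its called members, up to 6 by smallest p, or otherwise the 2 with the smallest p; others were named after their values were seen, as stated. Promoter sequences came from RefSeq (GRCm38.p6). The sources used here do not name the arrays' build. Alternatives left out each array, blocked on replicate number, centred or quantile normalized the arrays, kept brighter genes, used an intensity trend, took the mean of probe sets, tested all rows, or moved the threshold or the background.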

Additional observations from a re-analysis of the deposited data

How the results depend on the processing

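The 10 genes kept their direction in 99 of 109 fits of single genes under 11 alternatives. Blocking, the trend, keeping brighter genes, the mean of probe sets and testing all rows cannot change a gene's difference here. Fits under these count as kept whatever the values, so 99 of 109 overstates the stability. The 10 that turned were all fits that left out 1 array. Over those fits the difference ran from -0.26 to 0.58 for Il1a, -2.30 to 1.27 for Il1b, -0.85 to 0.51 for Il1rn, -1.09 to 0.22 for Il1r1, -0.96 to 1.32 for Nlrp3 and -0.77 to 0.17 for Gsdmd. It stayed below 0 for Il18 (-0.82 to -0.36), Pycard (-0.65 to -0.26), Casp1 (-0.81 to -0.65) and Casp4 (-1.08 to -0.22). The genes' median ran from -0.81 to 0.07. The count of the 10 genes called lower ran from 0 to 1 (Il1b), was 1 with an intensity trend (Casp1) and was 0 otherwise, also at a threshold of 0.10; 0 were called higher in any fit. Such fits and the trend gave genes of a level one shared spread, since the prior degrees of freedom were infinite. Over all genes, the 288 called higher ran from 185 to 545 and the 26 called lower from 26 to 101 when 1 array was left out. The counts were 183 higher and 11 lower among brighter genes, 70 lower after centring, 16 lower after quantile normalization and 205 lower with the trend. With the replicate number as a block, 620 were higher and 199 lower and 0 of the 10 were called (Casp1 adjusted p = 0.0816, Il1b 0.316). The labels do not say that a number marks a shared batch or litter. Deviations of same-numbered arrays correlated at r = 0.241 across all genes and 0.821 across the 10, which are not independent replicates. The second value includes Il1b, whose gaps of 3.43 in WT and 3.57 in Hem1 KO were the widest of the 10. It was not computed without Il1b. With 2 pairs these values do not settle a pairing. Array values of the 10 genes above background numbered 35 of 40, and 36 or 39 with background at the 90th percentile or the median of the receptor genes.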

Other observations

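Besides Ptgs2, Il1b, Cxcl2 and Osm, the 10 genes with the highest smaller gap between arrays of a genotype held 2 class II presentation genes, which were named after their values were seen. H2-Eb1 read 11.72 and 8.80 in WT cultures, against 10.97 and 7.28 in Hem1 KO cultures. H2-Ab1 read 10.93 and 8.89 in WT cultures, against 10.33 and 7.78 in Hem1 KO cultures. The others were Adgre4, an adhesion G protein-coupled receptor of myeloid cells (9.59 and 5.58 in WT, 7.81 and 5.12 in Hem1 KO), haptoglobin, Hp (7.52 and 5.59, 9.38 and 6.73), Gpr35 (8.72 and 6.42, 8.89 and 6.73) and Pxdc1 (8.59 and 5.84, 9.37 and 6.83). All 10 were higher on the array labelled replicate 1 in both genotypes. The type I interferon gene Irf7 showed the other split, with 10.62 on WT replicate 1 and 7.18 to 7.25 on the other 3 arrays.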
